A study of Mus musculus with 16 samples.

Results

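The regions described here are long stretches of histone H3 trimethylated at lysine 27 (H3K27me3) that hold no protein-coding gene. They were chosen from the H3K27me3 broad peaks of quiescent (QSC) and activated (ASC) mouse muscle stem cells. In each state separately, broad peaks were merged across gaps of up to 3 kb, and merged domains of at least 50 kb were kept, 1810 in QSC and 2080 in ASC. The union of both sets held 2489 long regions, of which 1779 overlapped a protein-coding gene record and 710 did not. These 710 regions cover 62.3 Mb of the mm10 genome, and each is named below by the nearest coding gene to its left and to its right. A gene called beside a region is the nearest coding gene on that side, at whatever distance.

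Muscle stem cells came from skeletal muscle of C57BL/6 mice, and QSC and ASC carry no other genotype or treatment in the labels. How the cells were isolated or activated, and whether replicates came from separate animals, is not given in the sources used here. Chromatin was immunoprecipitated for H3K27me3 or for H3K4me3, with 2 replicates and 2 input samples for each mark and state, 16 samples in all. The authors deposited 1 broad and 1 narrow peak list per mark and state, 8 lists, each standing for both replicates together. No contrast between the states below therefore has a replicate check, an error or a test. Read depth per library is unknown from these lists.

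H3K27me3 is written by Polycomb repressive complex 2, whose catalytic subunit is EZH2 or EZH1, and is read by Polycomb repressive complex 1, which compacts chromatin. In mammals the mark is densest at CpG-rich promoters of silent developmental genes, from which it can spread at a lower level over long intergenic stretches. H3K4me3 marks active or poised promoters, and its joint presence with H3K27me3 is called bivalency. Large gene-free intervals beside developmental regulators are known to carry many of the distant enhancers that control them. Satellite cells, the resident stem cells of muscle, rest in quiescence and enter the cell cycle upon activation.

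A census of noncoding genes in the regions gave 43 microRNA (miRNA) gene records in 17 regions, and RefSeq sequences (GRCm38.p6) were matched for 36 hairpins in 12 of them. Of these, 22 hairpins lay in a single region of chromosome 12 between Rtl1 and Dio3. The other sequences shown belong to miRNAs of regions described below. Capitals mark the seed, bases 2 to 8, which pairs with targets. The first 6 lines are grouped by shared seed, in 3 pairs.

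miR-376b-5p: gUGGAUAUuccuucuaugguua
miR-376c-5p: gUGGAUAUuccuucuauguuua
miR-453: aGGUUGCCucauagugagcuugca
miR-496a-5p: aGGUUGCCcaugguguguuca
miR-412-3p: uUCACCUGguccacuagccg
miR-1983: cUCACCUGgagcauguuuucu
miR-137-3p: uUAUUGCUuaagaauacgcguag
miR-129-5p: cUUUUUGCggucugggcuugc
miR-9-5p: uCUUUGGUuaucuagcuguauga
miR-200b-3p: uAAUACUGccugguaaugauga
miR-146a-5p: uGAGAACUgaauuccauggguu
miR-802-5p: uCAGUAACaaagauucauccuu

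Pairs with the same seed were few: the 39 mature sequences of the Rtl1-Dio3 region carried 37 distinct seeds. The promoters of 3 long noncoding RNA (lncRNA) genes inside the regions are also shown, because they span the range of CpG content discussed below. H3K4me3 peaks overlapped all of these promoters, that of Gm29595 in ASC only. Each is 300 bases long, from 250 before to 50 after the RefSeq start (GRCm38.p6), with every CG in capitals. 9530059O14Rik lies at chr9:122572251-122572550 on the plus strand, Gm32351 at chr13:94702839-94703138 on the minus strand and Gm29595 at chr19:45303288-45303587 on the minus strand.

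9530059O14Rik: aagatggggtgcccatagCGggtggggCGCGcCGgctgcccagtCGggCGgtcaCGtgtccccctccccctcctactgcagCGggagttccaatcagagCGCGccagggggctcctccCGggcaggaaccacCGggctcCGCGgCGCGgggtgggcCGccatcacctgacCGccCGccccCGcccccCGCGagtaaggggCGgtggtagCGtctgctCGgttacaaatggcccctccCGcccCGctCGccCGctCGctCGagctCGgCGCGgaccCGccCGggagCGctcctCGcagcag
Gm32351: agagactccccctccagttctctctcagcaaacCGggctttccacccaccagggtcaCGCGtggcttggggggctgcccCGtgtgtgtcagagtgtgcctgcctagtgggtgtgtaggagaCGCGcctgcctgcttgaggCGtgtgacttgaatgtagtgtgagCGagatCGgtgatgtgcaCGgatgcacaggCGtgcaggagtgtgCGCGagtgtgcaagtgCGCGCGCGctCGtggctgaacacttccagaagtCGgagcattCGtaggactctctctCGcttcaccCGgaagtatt
Gm29595: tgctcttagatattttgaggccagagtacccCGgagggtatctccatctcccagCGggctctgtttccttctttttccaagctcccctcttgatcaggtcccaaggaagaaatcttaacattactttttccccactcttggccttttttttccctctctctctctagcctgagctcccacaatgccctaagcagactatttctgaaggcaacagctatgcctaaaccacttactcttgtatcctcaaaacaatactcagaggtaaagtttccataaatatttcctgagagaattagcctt

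The regions had a median length of 68.2 kb, with quartiles of 57.18 and 94.997 kb. The shortest was 50020 bp and the longest 508930 bp, and 33 regions reached 200 kb. Long regions with coding genes had a median of 80.6 kb. The 5 regions just inside the 50 kb threshold measured 50020 bp (Sox2-Atp11b region 1), 50032 bp (Atxn1-Stmnd1 region 1), 50077 bp (Dhx35-Gm826 region 4), 50082 bp (Ldb2-Qdpr) and 50088 bp (Lrfn2-Mocs1 region 1). Just outside it were domains of 49916 bp (Nlrp1b-Wscd1), 49895 bp (Vrk1-Gm46320), 49866 bp (Ccny-Cetn1), 49819 bp (Auts2-Castor2) and 49771 bp (Dock9-Ubac2).

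Gene desert describes only part of the set. The gap between the flanking coding genes had a median of 396 kb, and 309 regions (43.5%) lay in gaps of at least 500 kb, 112 of them in gaps of at least 1000 kb. However, 147 regions ended within 5 kb of a coding gene and 365 within 50 kb. They are therefore called coding-free long regions here. A total of 495 held a noncoding gene record and 215 held no gene record of any type. The noncoding records comprised 722 lncRNA records in 397 regions, 216 pseudogenes in 171 regions, 56 transfer RNA (tRNA) genes in 6 regions and 25 small nucleolar RNA genes in 24 regions. Variable segments of the T cell receptor alpha and delta locus, which RefSeq does not class as protein-coding, lay in 2 regions between Gm36448 and Dad1.

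The regions occupied 480 of 5150 gaps of at least 50 kb, and 138 gaps held 2 or more of them. A total of 460 regions had another long region, with or without coding genes, within 100 kb. That count was not made for long regions with coding genes, so no comparison is drawn. Since domains were split wherever broad peaks lay more than 3 kb apart, some neighbours are pieces of a longer stretch. All autosomes carried such regions, from 14 on chromosome 16 to 61 on chromosome 2. The X chromosome carried 3, all beside Pja1, out of 5 X-linked long regions of any kind, and the Y chromosome none.

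Enrichment within the regions was shallow. The fold enrichment and -log10 q of a peak are the authors' own values and only describe peaks within a list. The highest broad-peak fold in a region had a median of 2.34 in QSC and 2.18 in ASC, beside 2.61 and 2.67 in long regions with coding genes. In 514 of 710 regions (72.4%, against 46.8% of all long regions) no broad peak reached a -log10 q of 2 in either state. Both measures are maxima over a region's peaks. Lengths were not matched, and long regions with coding genes were longer (median 80.6 kb against 68.2 kb). Narrow H3K27me3 peaks, which mark the sharper summits, were present in 547 regions (77.04%) in QSC, where 85.9% of all long regions had one. In ASC 623 regions (87.7%) had a narrow peak, against 93.9% of all long regions. Narrow peaks covered a median of 3.10% of region bases in QSC and 7.14% in ASC. In long regions with coding genes they covered 9.85% and 21.4%.

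Cover by broad peaks is a measure the choice of regions used, so it is given as a description. A domain of at least 50 kb was present in both states in 234 regions (33.0%, against 47.7% of all long regions), in QSC alone in 205 (28.9%, against 20.9%) and in ASC alone in 271 (38.2%, against 31.3%). The lists covered 455 Mb in QSC and 517 Mb in ASC. With the ASC list reduced to the covered bases of the QSC list, keeping the highest folds, 242 regions were long in QSC alone and 198 in ASC alone, the opposite order. Regions long in both states had a median length of 98.8 kb, against 61.3 kb for QSC alone and 63.1 kb for ASC alone. Length is that of the union of both states' domains, so the rule itself favours longer regions in the first group.

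Most regions long in a single state were partly covered in the other, as were long regions in general. Of the 205 regions long in QSC alone, 168 (81.95%, against 82.1% of all long regions of that kind) had at least 50% of their bases under ASC broad peaks, and the median ASC cover was 66.9%. Of the 271 long in ASC alone, 155 (57.2%, against 62.9%) had at least 50% under QSC peaks, with a median of 53.2%. Cover under 25% in the other state was found for 7 regions of the first group (3.41%, against 4.03%) and 44 of the second (16.2%, against 12.9%), and 2 of the latter held no QSC peak base. Over all 710 regions the median cover was 78.6% in QSC and 85.4% in ASC. Cover was larger in ASC in 422 regions (59.4%, against 64.1% of all long regions) and larger in QSC in 288. The states lay within 20 percentage points in 406 of 710 regions, beside 1244 of 1779 long regions with coding genes. ASC exceeded QSC by more than 50 points in 74 regions, where 7.43% of all long regions did so, and QSC exceeded ASC by that much in 9, where 1.37% did so.

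**Figure D1:**
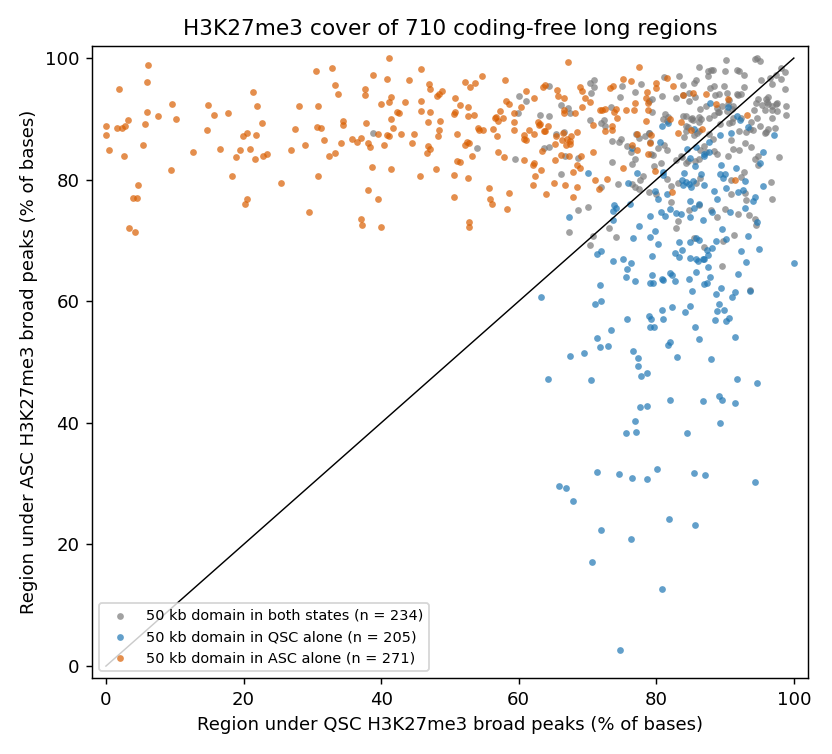
Percent of each region's bases under H3K27me3 broad peaks in QSC (horizontal axis) and ASC (vertical axis). Each point is 1 of 710 regions, coloured by whether a 50 kb domain was called in both states (234), QSC alone (205) or ASC alone (271); the line marks equal cover, and ASC exceeds QSC by more than 50 points in 74 regions and QSC exceeds ASC by as much in 9.

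The 10 longest regions were long in both states, with broad cover between 72.4% and 98.7% in QSC and between 87.7% and 98.3% in ASC. The longest, chr4:124019980-124528909, lay 83.0 kb from Rragc, a GTPase of amino acid sensing, and 129 kb from Pou3f1, a POU-domain transcription factor of neural and Schwann cells. It was covered over 88.4% in QSC and 95.3% in ASC. The second, chr9:60886249-61369552, filled 483 kb between Uaca and Tle3, a Groucho-family corepressor, and was covered over 98.2% and 98.3%. Narrow peaks took up 66.1% of it in QSC and 62.4% in ASC, far above the medians given above.

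A 391 kb region, chr6:99836770-100227970, ended 0.594 kb from Rybp, which encodes a subunit of Polycomb repressive complex 1, and began 110 kb from Prok2, a secreted prokineticin. Its cover was 96.8% in QSC and 92.1% in ASC, with narrow shares of 73.0% and 65.1%. The 375 kb Mn1-Cryba4 region 3, between the transcriptional coactivator gene Mn1 and a lens crystallin gene, had the highest QSC cover of the 10, 98.7%, and 94.9% in ASC. Its narrow share was 74.9% in QSC and 47.8% in ASC. Saraf-Dusp4 region 2 (410 kb) ran toward Dusp4, a phosphatase of MAP kinases, with 86.3% in QSC and 89.5% in ASC, and narrow shares of only 7.33% and 27.2%. Blocks of similar broad cover thus differed widely in how much of them carried narrow peaks.

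Of the remaining members of the 10 longest, Rps24-Zmiz1 region 4 (361 kb) was covered over 95.8% in QSC and 87.7% in ASC. Tbc1d5-Satb1 (327 kb), beside the chromatin organiser gene Satb1, had 94.2% and 91.4%. N4bp1-Cbln1 region 2 (312 kb), beside the synapse organiser gene Cbln1, had 72.4% and 89.7%. The other two lay on either side of the HoxD cluster, whose homeobox genes pattern the limbs and trunk and whose flanking gene-poor intervals are known to hold limb enhancers. Atp5g3-Lnpk region 1, chr2:73914820-74237620, was covered over 85.5% in QSC and 96.0% in ASC. Mtx2-Gm50595 region 1, chr2:74905643-75226760, was covered over 95.2% and 96.3%. A second region followed on each side, with 88.0% and 98.0% for Atp5g3-Lnpk region 2 and 88.4% and 78.2% for Mtx2-Gm50595 region 2.

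Gaps differed in which state had more cover. Among the 50 gaps with at least 3 regions, every region had the larger cover in ASC in 12 gaps and in QSC in 9, and 29 gaps were mixed. Regions of the same gap share their flanking genes and are not independent. Cover was also used to choose the regions, and 59.4% of all 710 had more of it in ASC. The counts of gaps are therefore a description, and none were made for other long regions. The gap with most regions, 10, was the 1557 kb between Auts2, which encodes a partner of Polycomb repressive complex 1, and Castor2, a paralogue of the arginine sensor gene Castor1 of the mTORC1 pathway. All 10 had more cover in QSC. Their QSC cover ranged from 74.8% to 91.4% and their ASC cover from 2.62% to 77.7%, with medians of 83.8% and 43.5%. Region 2, chr5:132894750-132946662, fell furthest apart, at 74.8% in QSC and 2.62% in ASC. Over the whole gap, broad peaks covered 66.6% in QSC and 36.3% in ASC, and narrow H3K27me3 peaks numbered 78 and 15.

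The gap between Celf2, an RNA-binding splicing regulator, and Gata3, a zinc finger transcription factor of T cell and ectodermal development, went the other way. All 6 of its regions had more cover in ASC, with a median of 30.4% in QSC and 91.1% in ASC. The region nearest Gata3, chr2:9516520-9731085, was 215 kb long and 126 kb from the gene, and its cover was 40.9% and 96.6%. Across the 2461 kb gap, broad peaks covered 12.99% in QSC and 38.1% in ASC, and narrow peaks numbered 2 and 88.

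Both sides of Sox2, a transcription factor of pluripotent and neural progenitor cells, resembled the Gata3 gap. Between Sox2 and Atp11b all 5 regions had more cover in ASC, with medians of 31.7% and 85.6%, and broad peaks covered 25.9% of the gap in QSC and 65.5% in ASC. On the other side, Dnajc19-Sox2 region 1 (233 kb) was covered over 20.5% in QSC and 87.7% in ASC. Dnajc19-Sox2 region 2 (72.1 kb) was covered over 6.17% and 98.9%. Gaps in which all regions had more cover in QSC included Meis1-Spred2, between a homeobox cofactor of Hox proteins and an inhibitor of Ras signalling, with 5 regions and median covers of 86.3% and 66.3%. Rps24-Zmiz1, with 6 regions, had medians of 89.9% and 77.2%. On the far side of Meis1, Etaa1-Meis1 had 63.7% in QSC and 88.0% in ASC, so neighbouring gaps could differ in direction.

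**Figure D2:**
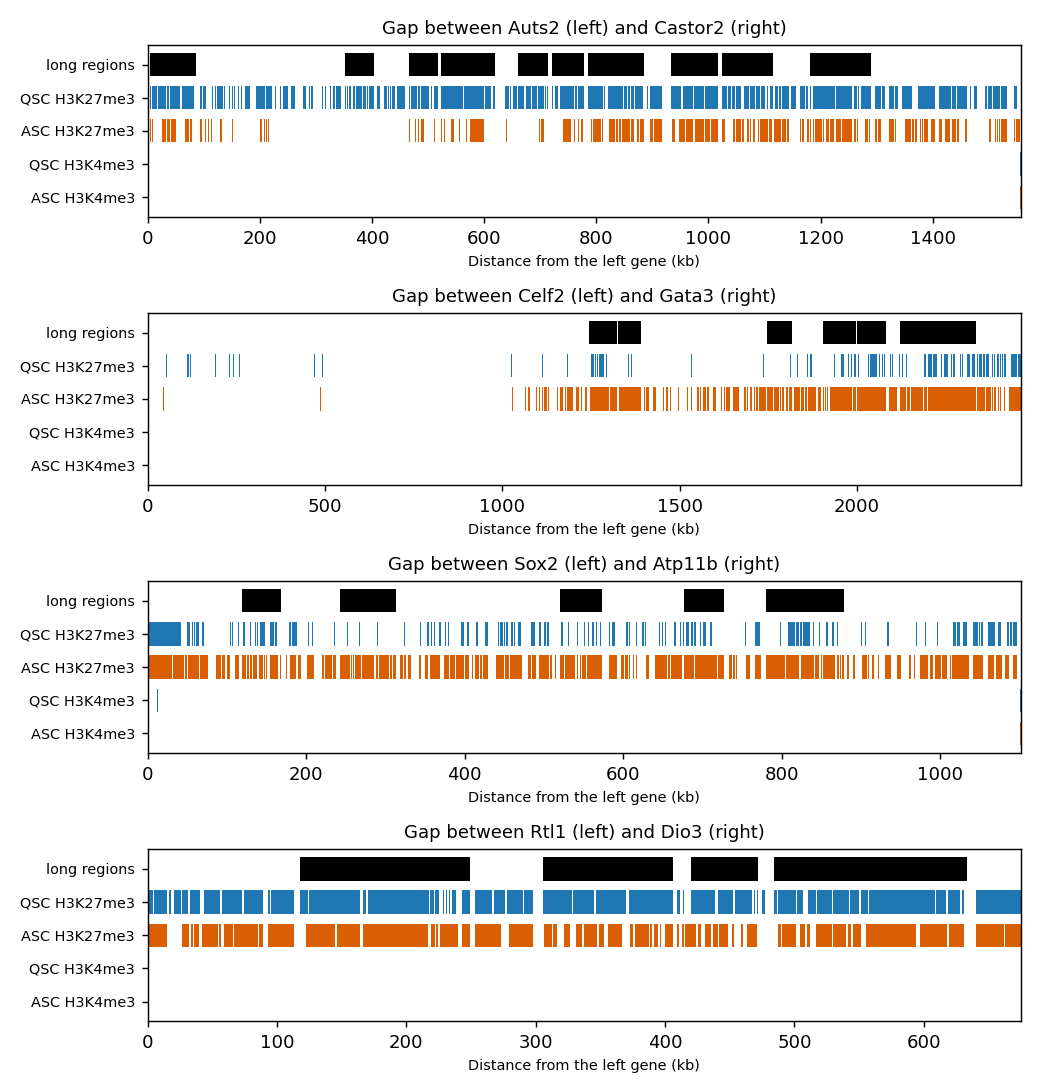
H3K27me3 broad peaks and H3K4me3 narrow peaks in 4 gaps between coding genes, by distance from the left gene in kb (blue, QSC; orange, ASC; black, coding-free long regions). Cover is denser in QSC across Auts2-Castor2, denser in ASC across Celf2-Gata3 and Sox2-Atp11b, and high in both states across Rtl1-Dio3.

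**Figure D3:**
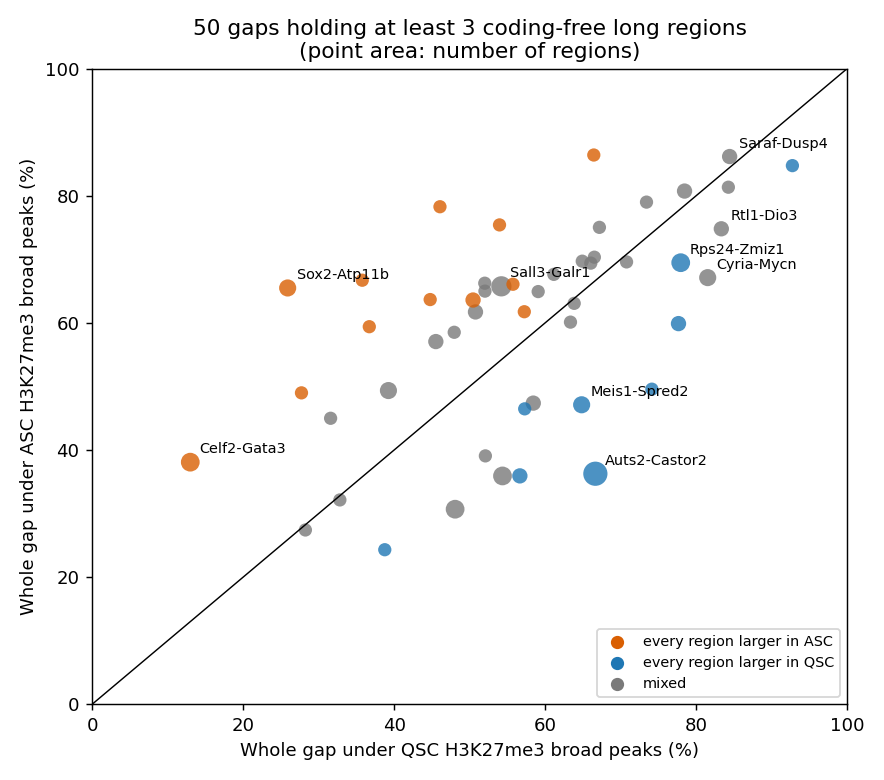
Percent of the whole gap under H3K27me3 broad peaks in QSC (horizontal axis) and ASC (vertical axis) for the 50 gaps with at least 3 regions. Point area grows with the number of regions; orange, 12 gaps with every region larger in ASC; blue, 9 with every region larger in QSC; grey, 29 mixed.

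Among single regions with the lowest cover in ASC, the Auts2-Castor2 gap supplied 3 of the first 4, and the other was Meis1-Spred2 region 4 (70.6% in QSC, 17.1% in ASC). Cdh11-Cdh5, between a mesenchymal and an endothelial cadherin gene, had 85.6% in QSC and 23.2% in ASC. Six2-Srbd1, 43.4 kb from the homeobox gene Six2, had 66.9% and 29.2%. Prickle1-Adamts20 region 2, beside a planar cell polarity gene, had 71.9% and 22.4%. Tle4-Psat1 region 2, beside a second Groucho corepressor gene, had 67.9% and 27.2%, and Dusp6-Csl, beside another MAP kinase phosphatase gene, 65.8% and 29.6%. Macrod2-Kif16b region 1 had 81.9% and 24.3%. All of these were 51.2 to 57.3 kb long, near the threshold.

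The 10 regions with the lowest cover in QSC had from 0% to 3.36% there and from 72.1% to 94.9% in ASC. Vegfc-Spcs3, 128 kb from the lymphatic growth factor gene Vegfc, had no base under a QSC peak and 88.9% under ASC peaks. The same held for 4930474N05Rik-Ccser2 region 1, with 87.4% in ASC, and region 2 of that gap had 1.96% and 94.9%. Sstr5-Sox8, which ended 1.13 kb from the SoxE transcription factor gene Sox8 and 15.3 kb from a somatostatin receptor gene, had 0.374% in QSC and 84.9% in ASC. Npy2r-Rbm46, beside a neuropeptide Y receptor gene, had 2.79% and 88.8%. Kcnq5-Rims1, between a potassium channel and a synaptic release gene, had 1.55% and 88.6%, and no narrow H3K27me3 peak in either state. Outside this rule, and chosen after its values were seen, Col6a2-Col6a1 lay between collagen VI genes of the muscle matrix. Its cover was 5.95% in QSC and 91.2% in ASC, and its narrow share 0% and 23.9%.

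The flanking genes were not used to choose the regions beyond the exclusion of coding records. Of 5 families defined by symbol, developmental transcription factors (Hox, Sox, Pax, Tbx, Gata, Irx, Pou and similar families) were nearest on either side of 149 regions (21.0%), 98 of which (65.8%) had more cover in ASC, against 59.4% of all the regions. Counted once per gap, 86 of 480 gaps with regions (17.9%) had such a gene at an edge, beside 7.28% of all gaps of at least 50 kb and 289 of 4670 gaps without regions (6.19%). Gaps with regions were longer, with a median of 288 kb against 110 kb, so the comparison was repeated by gap length. The shares were 11.6% with and 5.44% without regions for gaps of 50 to 200 kb, 12.99% and 7.49% for 200 to 500 kb, 31.7% and 10.6% for 500 to 1000 kb, and 27.3% and 6.35% beyond. The share was higher with regions in every length class.

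Over all gaps the other families showed smaller differences in percentage points, and the direction changed with gap length in each. Ion channels and neurotransmitter receptors flanked 32 gaps with regions (6.67%, against 4.49% of all gaps), cell adhesion and axon guidance genes 22 (4.58%, against 3.84%) and secreted signals 20 (4.17%, against 3.28%). In longer gaps these 3 families were less common with regions than without. For gaps of 500 to 1000 kb the shares were 4.81% against 6.11% for channels, 4.81% against 9.003% for adhesion and 2.88% against 4.50% for secreted signals. Beyond 1000 kb they were 4.55% against 7.14%, 13.6% against 22.2% and 0% against 3.17%. Olfactory, vomeronasal and taste receptor genes flanked 5 gaps (1.04%, against 5.36% of all gaps). Their shares with and without regions were 1.29% and 7.56% for 50 to 200 kb, and 1.13% and 2.25% for 200 to 500 kb. For 500 to 1000 kb they were 0.96% (1 of 104 gaps) and 0.32%, and beyond 1000 kb 0% and 0.79%.

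**Figure D4:**
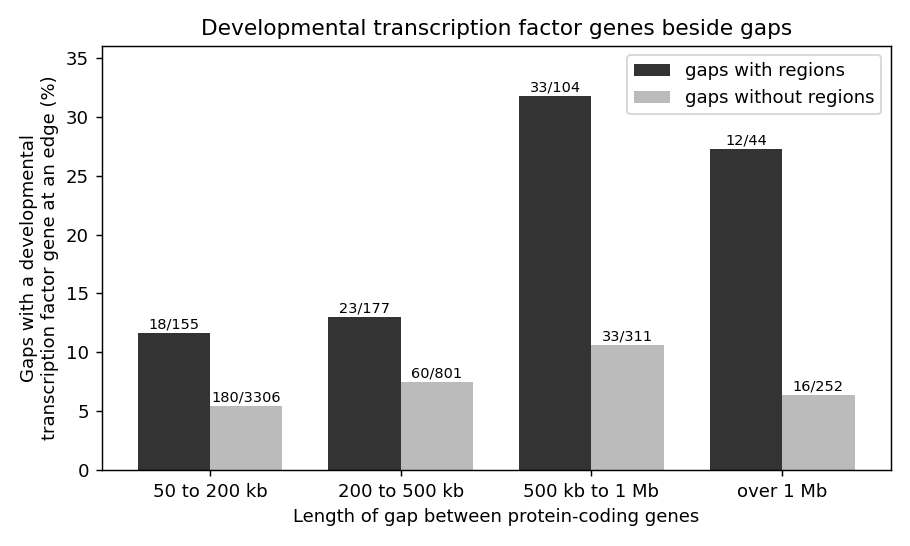
Percent of gaps between coding genes with a developmental transcription factor gene at an edge, by gap length, for gaps with (dark) and without (light) coding-free long regions; numbers give flanked gaps over all gaps. The dark bar is higher in all 4 length classes, from 11.6% against 5.44% to 31.7% against 10.6%.

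The longest regions beside developmental factors, after Rragc-Pou3f1 and Tbc1d5-Satb1, were covered over at least 81.2% in both states. Gm52008-Bcl11b region 2 (310.1 kb), 40.6 kb from the gene of a zinc finger factor of T cells and neurons, had 92.7% in QSC and 81.2% in ASC. Med13l-Tbx3 region 1 (297 kb), 559 kb from a T-box factor gene of limb and heart, had 96.8% and 90.1%. Runx1-Setd4 (282 kb), 470.2 kb from the haematopoietic factor gene Runx1 and 4.71 kb from Setd4, had 90.2% and 91.3% and contained Mir802, whose sequence is given above. Of 4 regions beside factor genes known from the muscle lineage, chosen after their values were seen, cover ranged from 60.8% to 89.998%. Pax7-Klhdc7a, 25.6 kb from Pax7, the paired-box factor of satellite cells, had 86.4% and 89.998%. Epha4-Pax3 region 2, 44.5 kb from its paralogue Pax3, had 84.1% and 87.1%. Mef2c-Tmem161b had 76.3% and 84.6%, and Lbx1-Btrc 63.2% and 60.8%. Pax7 itself had a narrow H3K4me3 peak at a gene end in both states, as did Myf5, Cdh15 and Sdc4, the other satellite cell markers examined. Endothelial and muscle fibre markers had none in either state. Of the fibro-adipogenic markers, Dpt had a peak in both states and Pdgfra in neither. Of the pericyte markers, Myh11 had a peak in QSC only and Rgs5 in neither state. Of the immune markers, Cd68 had a peak in ASC only and Ptprc in neither state. Whether such cells contributed to the regions was not tested.

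In the other families, the longest regions were 9530068E07Rik-Fstl4 (228 kb; secreted signals), with 79.3% in QSC and 93.3% in ASC, and Zbtb40-Wnt4 (211 kb), 17.3 kb from the Wnt ligand gene Wnt4, with 94.1% and 88.2%. Wnt5a-Cacna2d3 (205 kb), between a Wnt ligand and a calcium channel subunit gene, had 63.2% and 90.6%. Zc3h12a-Grik3 (149 kb), beside a kainate receptor gene, had 94.7% and 90.2%. Arap3-Pcdh1 (144 kb) and Mphosph6-Cdh13 region 1 (142 kb), beside a protocadherin and a cadherin gene, had 81.7% and 90.3%, and 85.8% and 96.5%. Atpsckmt-Tas2r119, beside a bitter taste receptor gene, had 87.0% and 31.4%, whereas the other 4 regions beside chemoreceptor genes had more cover in ASC.

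H3K4me3 was not used to choose the regions. Few of them held it, but leaving out coding records also leaves out their promoters. A narrow H3K4me3 peak overlapped 34 regions (4.79%) in QSC and 59 (8.31%) in ASC. Among all long regions 25.1% held one in QSC and 34% in ASC. Among 50 kb tiles of other coding-free sequence, 5.75% did in QSC and 6.66% in ASC, but most regions are longer than a tile, so the densities per Mb below are the fairer comparison. Peaks were found in both states in 30 regions, in QSC only in 4, in ASC only in 29 and in neither in 647. That split was not counted for all 2489 long regions, of which more also held a peak in ASC (847) than in QSC (624). With the ASC list reduced to the number of peaks of the QSC list, keeping the highest folds, the counts were 34 and 43. The broad H3K4me3 lists gave the opposite order, 693 and 288 regions, and they held 184538 peaks in QSC and 29297 in ASC.

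Peaks per Mb, counted by their midpoints, were 0.498 in QSC and 0.963 in ASC within the regions, 0.755 and 0.950 in other coding-free sequence, and 4.16 and 5.87 in long regions with coding genes. More than 5 kb inside their ends, the regions had 0.471 and 0.960 peaks per Mb, and other coding-free sequence 0.476 and 0.619. By this measure the regions were close to other coding-free sequence in QSC and above it in ASC. Without the tRNA clusters of chromosome 13 described below, the inner density was 0.436 in QSC and 0.763 in ASC. The 42 QSC and 80 ASC peaks in the regions had median folds of 5.81 and 8.22, below the 10.4 and 16.3 of all narrow peaks.

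**Figure D5:**
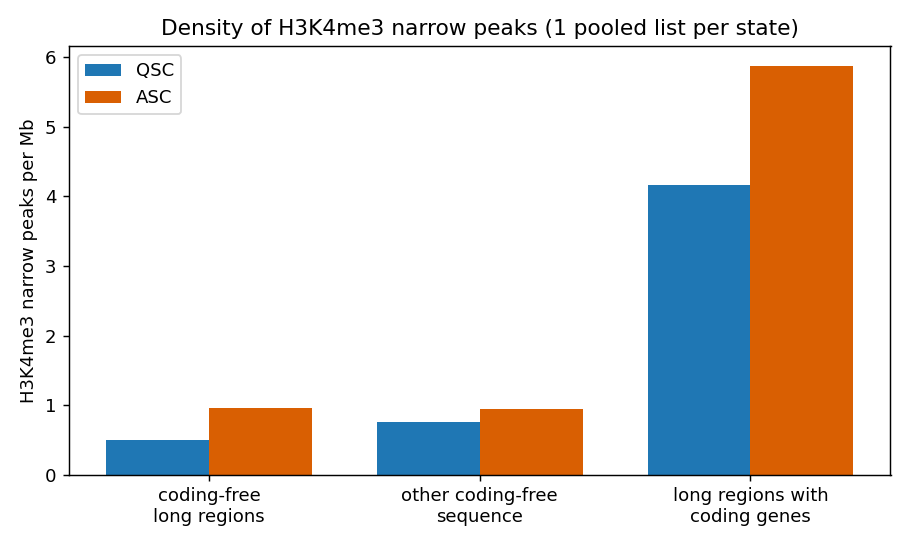
H3K4me3 narrow peaks per Mb in coding-free long regions, other coding-free sequence and long regions with coding genes, for QSC (blue) and ASC (orange), with 1 pooled list per state and so no error bars. The regions have 0.498 and 0.963 peaks per Mb, other coding-free sequence 0.755 and 0.950, and long regions with coding genes 4.16 and 5.87.

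Where the peaks lay divided them further. Within 1 kb of the end of a coding gene record lay 10 QSC and 19 ASC peaks, with median folds of 14.4 and 29.3, and 10 and 18 of them crossed a region's edge. Since the regions end before coding records, their overlap with H3K27me3 is limited by the choice of regions and is not compared with other peaks. Within 1 kb of the end of a noncoding record lay 17 and 36, with median folds of 5.32 and 7.26, and 8 and 21 of them were wholly under H3K27me3 broad peaks. Another 2 and 7 lay inside noncoding records and 13 and 18 outside any record. The regions were chosen for broad-peak cover, with medians of 78.6% in QSC and 85.4% in ASC. That choice favours overlap of H3K4me3 peaks with H3K27me3, here and in the examples below, so such overlap is only described. As these are lists from whole cell populations, overlap does not show that both marks sat on the same nucleosomes or in the same cells.

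The regions with most H3K4me3 in ASC held tRNA gene clusters on chromosome 13, beside the large histone gene cluster. Vmn1r223-Zfp322a, chr13:23268292-23350467, held 9 tRNA genes and had 1909 bases of H3K4me3 in QSC and 10757 in ASC, in 2 and 6 peaks. H4bc24-Zfp184, chr13:21850534-21938743, held 18 tRNA genes and Mir1983, and had 0 and 7566 bases, in 0 and 6 peaks. The ASC peaks included those at the isoleucine tRNA genes n-TIaat9 (fold 16.8) and n-TIaat10 (fold 9.03) and at the arginine tRNA gene n-TRtct3 (fold 14.8), each wholly under ASC H3K27me3 broad peaks. Of the 12 ASC peaks in both regions, 8 were wholly under them and 2, including one at the threonine tRNA gene n-TTagt4 (fold 14.4), had no base under them. Region cover by H3K27me3 was 90.6% in QSC and 93.2% in ASC for the first region, and 82.9% and 72.0% for the second. Zfp746-Krba1 regions 1 and 2 on chromosome 6, with 5 and 22 tRNA genes, had no H3K4me3 peak in either state. Acpp-Cpne4, with 1 tRNA gene, had a single ASC peak (fold 8.31), and Zdhhc25-Brd1, also with 1, had none.

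Several neuronal miRNA genes lay in such regions. miR-124, miR-137, miR-129 and miR-9 are known from neurons and their progenitors. Msra-Kif13b (113 kb), with the host gene Mir124a-1hg, carried an H3K4me3 peak at that gene in QSC (fold 7.98) and in ASC (fold 8.02). Both peaks were wholly under H3K27me3, and the region's cover was 96.8% and 95.8%. Snx7-Dpyd, chr3:118420543-118479035, held Mir137 and was covered over 37.7% in QSC and 94.0% in ASC. A peak spanned Mir137 in ASC (fold 4.15, wholly under H3K27me3), and none was listed there in QSC. Hsd17b12-Ttc17 (116 kb), with Mir129-2, Mir129b and Mir670, was covered over 97.4% and 97.2%. It had H3K4me3 over 1406 bases in QSC and 2719 in ASC, the latter including part of a peak of fold 32.5 that crossed the region's edge. An ASC peak at Mir129-2 (fold 3.97, wholly under H3K27me3) had no QSC counterpart. Mef2c-Tmem161b (71.5 kb), with Mir9-2, was covered over 76.3% and 84.6% and had an ASC peak of fold 4.33 lying 7727 bases from the Mir9-2 record. Each of these ASC-only peaks was weak beside the median ASC fold of 16.3.

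The Rtl1-Dio3 gap belongs to an imprinted locus, where Rtl1 and the thyroid hormone deiodinase gene Dio3 are expressed from the paternal chromosome and the noncoding genes and miRNAs from the maternal one. Region 1, chr12:109722196-109853795, held 22 of the 36 matched hairpins. It was covered over 86.1% in QSC and 87.9% in ASC, with narrow shares of 39.4% and 48.9%, and held no H3K4me3 narrow peak in either state. Regions 2 to 4 of the gap held more cover in QSC, with 94.9% against 68.6% in region 2. Across the gap, narrow H3K27me3 peaks numbered 126 in QSC and 75 in ASC. The lists do not separate the parental chromosomes.

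Of the other regions with miRNAs shown above, Ttll10-9430015G10Rik, with Mir200b, a regulator of epithelial identity, was covered over 81.6% in QSC and 77.7% in ASC and held 1 H3K4me3 peak in ASC and none in QSC. Atp10b-Pttg1, with the gene of miR-146a, a miRNA of inflammatory signalling, was covered over 81.7% and 89.4% and held none in either state.

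Promoters of noncoding genes in the regions could be scored for 593 RefSeq starts, of which 12 carried a narrow H3K4me3 peak in either state. Of all 11588 noncoding promoters, which were not limited to coding-free sequence, 1735 (15.0%) carried one. The motif counted was CG, which reads the same on both strands. These 12 held a median of 12 CG, and 7 (58.3%) held at least 10. The 581 without a peak held a median of 4, and 50 (8.61%) held at least 10. Outside the regions, 1723 noncoding promoters with H3K4me3 had a median of 21, with 78.5% at 10 or more, and 9272 without had a median of 3, with 8.67% at 10 or more. Of all 11588 noncoding promoters, 19.1% held at least 10. Within the regions the 12 marked promoters were therefore richer in CG than the unmarked ones. They were poorer than marked noncoding promoters elsewhere, a set that was not limited to coding-free sequence, so the choice of regions may bear on this. Some of the 12 met a peak only at its edge. That of Gm46069, with 4 CG, began at 34689909 and its peak ended at 34689917.

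The promoters printed above mark this range. That of 9530059O14Rik held 38 CG, and its H3K4me3 peak was wholly under H3K27me3 in QSC (fold 7.26) and in ASC (fold 6.50), within a region covered over 94.4% and 99.9%. That of Gm32351, in Ap3b1-Tbca, held 22, and its peak was wholly under H3K27me3 in both states, with folds of 5.56 and 8.49. That of Gm29595, in Lbx1-Btrc beside the homeobox gene Lbx1 of migrating muscle precursors, held 2. The QSC peak there spanned 1787 bases (fold 10.2), with no base under H3K27me3. It ended at 45302517, short of the promoter and 261 bases from the nearer end of the record. In ASC the peak spanned 3219 bases (fold 16.1) and lay wholly under H3K27me3. It reached the record and ended at 45303535, inside the promoter. Cover of the region was 63.2% in QSC and 60.8% in ASC.

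Further regions with much H3K4me3 included Arrdc4-Nr2f2 region 5, which ended 1.03 kb from the orphan nuclear receptor gene Nr2f2. Its peaks covered 824 bases in QSC and 2808 in ASC, and the stronger one in each state crossed the region's edge at Nr2f2 (folds of 11.1 and 15.5). Dnajc1-Commd3 held a peak outside any gene record, with 2309 and 2648 bases and folds of 12.1 and 15.5. That peak lay under H3K27me3 over 13.2% of its length in QSC and wholly in ASC. Sox9-Slc39a11, with the lncRNA gene 2610035D17Rik, had 1462 and 1670 bases at that gene and region covers of 87.4% and 63.1%. Irx1-Irx2 region 2, between Iroquois homeobox genes, had 1066 and 1801 bases in 2 peaks of each state, all outside gene records. Slc1a4-Sertad2 had 1387 and 2318 bases. The first of 2 regions left of Gdi2, with no coding gene on its other side, had 3354 bases in QSC and 3276 in ASC.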

How the data were processed

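H3K4me3 and H3K27me3 were measured by ChIPmentation (tagmentation of antibody-bound chromatin) and paired sequencing on a NextSeq 500, per the labels' protocols. The submitters' processing notes name MACS2 2.1.1 and, without roles, Bowtie2 2.3.2, Trimmomatic 0.36, SAMtools 1.3, Picard 2.9.2, bcl2fastq 2.19 and bedtools 2.26.0, on mm10. Settings and order are not stated. Groups follow the sample titles. Each of the 8 lists the authors deposited is named for both replicates of a group and was treated as pooled. Every deposited peak carries the authors' fold enrichment (a linear ratio), a p-value and a q-value as -log10, and a display score. The narrow lists also hold a deposited summit offset, which with the score was not used. Read depth is unknown.

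Peaks were merged and overlapped by at least 1 bp with Python 3.11.15 and pandas 2.3.3, in code tested on simulated intervals. Genes are the 49943 RefSeq records of GRCm38.p6, 21887 of them protein-coding, which share mm10 coordinates. The table gives no strand, so an H3K4me3 peak was placed by both ends of a record. No model or test was fitted. The regions, gene families and markers were chosen with earlier results of these data known. Named regions are the 10 longest, up to 10 per single state with the lowest cover in the other, up to 10 with most H3K4me3 bases, 5 on each side of the length threshold and the 5 longest per flanking family; others were chosen after their values were seen, as were the gaps, miRNA and promoter examples.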

Additional observations from a re-analysis of the deposited data

How the results depend on the processing

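No paired analysis was possible because each list pools both replicates of its group, and for the same reason no replicate could be left out. The number of regions, 710, and the counts long in both states, in QSC alone and in ASC alone (234, 205 and 271) depended on the settings. With a merging gap of 1 kb there were 282 regions (87, 73 and 122). With 5 kb the regions numbered 986, with 387 long in both states, and with 10 kb 1290 (543, 372 and 375). A minimum length of 30 kb gave 1793 (697, 423 and 673) and one of 100 kb gave 154 (53, 45 and 56). The peaks' strength mattered most: a fold of at least 3 left 47 (17, 16 and 14), a -log10 q of 5 or more left 15 (0, 1 and 14), and narrow peaks gave 44 (8, 17 and 19). Excluding gene records of every type left 215 (38, 73 and 104). Gaps of at least 500 kb, chosen after seeing the data, held 309. Equal covered bases (the ASC list reduced) and coding records widened by 5 kb kept each count within 1.5 times; with equal bases QSC alone (242) exceeded ASC alone (198).

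Median cover of the 710 regions was 78.6% in QSC and 85.4% in ASC. It was 0% in both states with a fold of at least 3, where 43 regions were larger in ASC and 37 in QSC, and also 0% for -log10 q values of 5 or more, where the counts were 20 and 1. It was 82.7% in ASC with equal covered bases, 3.10% and 7.14% with narrow peaks, and 85.1% and 90.1% with a minimum of 100 kb, where 93 regions were larger in ASC and 61 in QSC. Regions with H3K4me3, 34 in QSC and 59 in ASC, numbered 693 and 288 with broad H3K4me3 peaks, 3 and 5 after excluding gene records of every type, 19 and 33 with coding records widened by 5 kb, and 16 and 26 with a minimum of 100 kb. Chosen after seeing the data, leaving out peaks at coding gene ends gave 26 and 44, and leaving out the tRNA clusters 33 and 57. Regions beside a developmental transcription factor gene, 149, numbered 291 with any such gene within 1 Mb, 42 of 154 (27.3%) at 100 kb and 307 of 1793 (17.1%) at 30 kb. The causes of these changes beyond the settings themselves were not tested. Shallow enrichment and unknown read depth limit all values, and a base outside a peak is not shown to lack the mark.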
